A study of Mus musculus with 6 samples.

Results

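The genes described here encode 10 mRNA-binding proteins that are known partners of YBX1 in messenger ribonucleoprotein particles, stress granules and the reading of 5-methylcytosine (m5C) in mRNA. They were taken by name (Elavl1, Dhx9, Pabpc1, G3bp1, G3bp2, Caprin1, Ddx6, Igf2bp2, Nsun2 and Lsm14a), and each matched 1 row of the 78409 genes in the deposited table. RNA came from hearts of 11-month-old mice in 2 groups. The knockout group (3 hearts) carried a deletion of Ybx1 restricted to cardiomyocytes (labelled Ybx1cmKO), and the control group (3 hearts) were littermates. Not given in the sources used here were the driver of the deletion, the alleles the controls carried and the sex of the mice. Each library was made from whole heart tissue, so cells other than cardiomyocytes, in which Ybx1 was not targeted, contributed RNA to every value, and fewer cells of a type cannot be told apart from less RNA per cell.

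YBX1 is an abundant RNA-binding protein with a cold-shock domain that packages cytoplasmic mRNA and affects its translation and stability. It is found with the proteins studied here. ELAVL1 (HuR) binds AU-rich and U-rich sequences in 3′ untranslated regions, and IGF2BP2 binds and stabilises target mRNAs. DHX9 is an RNA helicase that occurs with YBX1 in the complex on the coding region determinant of the Myc mRNA. PABPC1 covers the poly(A) tail. G3BP1, G3BP2 and CAPRIN1 form the core of stress granules, and DDX6 and LSM14A repress and store mRNA in P-bodies. NSUN2 writes m5C into RNA, a mark that YBX1 binds.

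YBX1 was first described as a protein that binds the Y-box, a promoter element built around an inverted CCAAT sequence, so the promoters are shown first for that motif. RefSeq promoter sequences (GRCm38.p6) were found for 8 of the 10 genes, with 10 start sites in all, and not for Pabpc1 and Ddx6. In the 250 bases before the start, CCAAT on either strand (CCAAT or ATTGG) was present in 3 of these 8 genes (Elavl1, G3bp1 and 1 of the 3 starts of G3bp2), or 37.5%, and in 37.5% of 27025 genes of the same table. The GC box GGGCGG on either strand (GGGCGG or CCGCCC) was present in 5 of the 8 genes (Dhx9, G3bp1, G3bp2, Caprin1 and Igf2bp2), or 62.5%, against 35.4% of all genes. A gene counted if any of its starts had the motif. All genes of that table were used, not only those expressed in these hearts. The higher share is thus not shown to be particular to the members. The GC content of these 250 bases was 53.2% to 78.0% for the 10 starts, where the median over all starts was 52.4%. The stretches below are on the strand of the gene, with CCAAT or ATTGG in capitals. They are shown because Elavl1 and Dhx9 were the members whose knockout hearts all lay above the control hearts, because G3bp1 had the most matches of the members, and because Ybx1 itself is the deleted gene. The Elavl1 stretch covers the last 100 bases before the start (chr8:4325101-4325200, minus strand), that of Dhx9 the same window (chr1:153487661-153487760, minus strand), that of G3bp1 the bases from 150 to 51 before the start (chr11:55469602-55469701, plus strand) and that of Ybx1 those from 150 to 21 before it (chr4:119294534-119294663, minus strand).
Elavl1: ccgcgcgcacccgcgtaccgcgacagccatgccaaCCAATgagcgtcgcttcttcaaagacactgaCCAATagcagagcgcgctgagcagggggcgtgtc
Dhx9: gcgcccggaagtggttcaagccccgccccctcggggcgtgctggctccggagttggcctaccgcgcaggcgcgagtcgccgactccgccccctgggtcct
G3bp1: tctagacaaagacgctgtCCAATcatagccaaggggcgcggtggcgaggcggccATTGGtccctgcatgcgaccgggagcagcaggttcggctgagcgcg
Ybx1: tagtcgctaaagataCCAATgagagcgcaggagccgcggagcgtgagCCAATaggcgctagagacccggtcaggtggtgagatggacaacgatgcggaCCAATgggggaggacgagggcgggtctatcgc
The Elavl1 promoter held CCAAT from 65 and from 34 bases before the start, and the Ybx1 promoter from 135, 103 and 52 bases before it. No match in the Dhx9 stretch says only that these letters are not in this window.

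The libraries held 12270796 to 15141525 counts. Ybx1 lay between 813 and 898 CPM (the count as a scaled share of its library, normalised between libraries) in the control hearts and between 110 and 203 CPM in the knockout hearts, a fold change of 0.189 (95% interval 0.124 to 0.288; adjusted p = 0.148 in edgeR and 2.05e-16 in DESeq2). All 8 cardiomyocyte markers were detected in every heart, and the 4 lung epithelial markers were at 0. Knockout heart 3 stood apart from the other 5 libraries in RNA classes: 10.7% of its counts were mitochondrial rRNA, where the others had 20.5% to 26.3%, and its nuclear RNA Malat1 was at 668 deposited CPM, where the others had 3317 to 7923. The summed level of the 6 fibroblast markers was 604 to 704 CPM in control and 716 to 886 CPM in knockout hearts. That of the 6 macrophage markers was 80.2 to 103.5 and 104.3 to 148 CPM. Neither sum overlapped between the groups, the macrophage sum only just. The cardiomyocyte, endothelial, smooth muscle and pericyte, lymphocyte, erythroid and skeletal muscle sums did overlap. Among single genes, the groups did not overlap for 12.1% of all tested genes.

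None of the 10 partner genes changed past the threshold in the hearts that lacked cardiomyocyte Ybx1. All 10 were expressed high enough to be tested. The quasi-likelihood test of edgeR called 0 of them (adjusted p under 0.05 by Benjamini-Hochberg over all genes), and 0% of all 13717 tested genes. It did not call the deleted gene Ybx1 either (fold change 0.189, edgeR adjusted p = 0.148), which had the smallest p of all tested genes. A count of 0 members is therefore no sign that the partners were unchanged. At an unadjusted p under 0.05 there was 1 member, Elavl1, where 5.14% of all tested genes (705) lay under it (2.69% on the higher and 2.45% on the lower side), and DESeq2 and limma-trend also called 0 of the 10 genes over all genes. DESeq2 called 0.109% of all tested genes (15) and limma-trend none. The fold changes ran from 0.787 for Ddx6 to 1.37 for Dhx9 and Elavl1. The log2 fold change lay above 0 for 7 members and below 0 for 3 (9 and 1 without a scaling factor, where G3bp2 and Nsun2 turned), with a median of 0.09, where 51.1% of all tested genes lay above 0 and their median was 0.01. The 95% interval lay within 2-fold either way for all 10 members, as for 63.5% of all tested genes, and within 1.5-fold for 4 of them (G3bp1, G3bp2, Caprin1 and Nsun2), as for 16.9% of all tested genes.

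**Figure D1:**
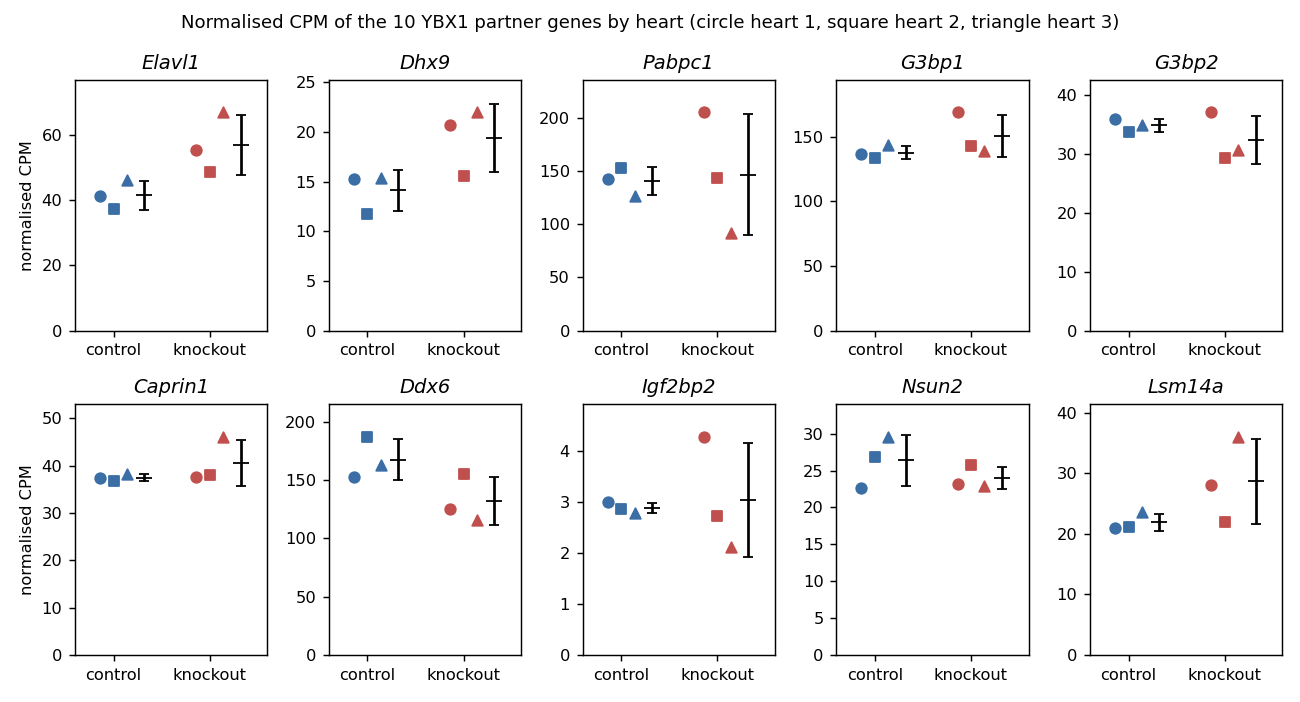
Normalised CPM (vertical axes, each from 0) of the 10 partner genes in the 3 control hearts (blue) and 3 knockout hearts (red), with the heart number given by the symbol and the mean ± SD of each group in black. Elavl1 and Dhx9 have all 3 knockout hearts above the control hearts. The SD is larger among the knockout than the control hearts for every gene except Nsun2. The coefficient of variation among knockout hearts is largest for Pabpc1 (38.8%) and Igf2bp2 (36.7%). The share of all tested genes with a larger knockout SD was not counted.

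Elavl1, the AU-rich element binding protein HuR, was at 41.3, 37.1 and 46.0 CPM among the controls against 55.2, 48.4 and 66.8 CPM among the knockouts (hearts 1, 2 and 3 of each group). All knockout hearts lay above all control hearts, with the highest value in knockout heart 3. The means were 41.5 ± 4.42 and 56.8 ± 9.29 CPM (SD, n = 3 each), a log2 fold change of 0.45 (SE 0.19, 95% interval 0.01 to 0.89; edgeR unadjusted p = 0.0442, adjusted p = 0.694). Without knockout heart 3 the log2 fold change was 0.32. The neuronal paralogues Elavl2, Elavl3 and Elavl4 were below the level for testing, with 0 to 4 counts in each library. The exons of Elavl1 and of Ccl25 on the opposite strand share 204 bases in GENCODE M21. Ccl25 had 10 to 20 counts where Elavl1 had 401.5 to 1201, and reads of the shared bases could not be told apart, because the protocol as described names no step that marks strand.

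Dhx9, the RNA helicase, showed the same order of hearts. It was at 15.3, 11.7 and 15.3 CPM among the controls against 20.7, 15.55 and 21.96 CPM among the knockouts (hearts 1, 2 and 3 of each group). The groups did not overlap, but knockout heart 2 lay only just above the 2 higher controls. The means were 14.1 ± 2.06 and 19.4 ± 3.40 CPM, a log2 fold change of 0.46 (SE 0.21, interval -0.01 to 0.93; edgeR unadjusted p = 0.0561, adjusted p = 0.694). Without knockout heart 3 it was 0.36. Elavl1 and Dhx9 were thus the 2 of 10 members with all knockout hearts above all controls, where this held for 6.26% of all tested genes. The count of members with all knockout hearts below the controls was 0, where 5.82% of all tested genes showed that. The fibroblast and macrophage marker sums above were also higher in all knockout hearts, the macrophage sum only just. Their part in the values of Elavl1 and Dhx9 was not tested.

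None of the 3 stress granule core genes passed the test. G3bp1, which nucleates stress granules by binding RNA, was at 136, 133 and 144 CPM among the controls against 169, 143 and 139 CPM among the knockouts (hearts 1, 2 and 3 of each group). The groups overlapped, with knockout heart 1 above the rest (means 138 ± 5.30 and 150.4 ± 16.1 CPM; log2 fold change 0.13, interval -0.28 to 0.53). Its paralogue G3bp2 was at 36.0, 33.8 and 35.02 CPM among the controls against 37.1, 29.4 and 30.7 CPM among the knockouts. Here knockout heart 1 was again the highest, while knockout hearts 2 and 3 lay below all controls (means 34.9 ± 1.09 and 32.4 ± 4.11 CPM; log2 fold change -0.11, interval -0.50 to 0.29). Caprin1, the protein that binds G3BP1 and G3BP2, was at 37.3, 36.8 and 38.2 CPM among the controls against 37.6, 37.9 and 46.1 CPM among the knockouts. Only knockout heart 3 stood outside the narrow range of the controls (means 37.4 ± 0.728 and 40.5 ± 4.82 CPM; log2 fold change 0.12, interval -0.27 to 0.50, and 0.01 without knockout heart 3). The adjusted p of these 3 genes was 0.795 to 0.821 in edgeR.

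The balance between the paralogues G3bp2 and G3bp1 was read as a ratio of counts within each library, which no scaling between libraries can move. It was 0.264, 0.254 and 0.244 among the controls against 0.220, 0.206 and 0.220 among the knockouts (hearts 1, 2 and 3 of each). The ratios did not overlap (means 0.254 ± 0.00991 and 0.215 ± 0.0085, SD, n = 3 each, a change of -15.3%). The ratio to G3bp1 was below all controls in all knockouts for 11.5% of the other tested genes and above them for 1.76%. The ratio of G3bp2 was picked among 7 ratios after the levels had been seen and carries no test. In GENCODE M21 the exons of G3bp2 share 2050 bases with the noncoding RNA Gm26582 on the opposite strand, so part of its counts is uncertain.

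**Figure D2:**
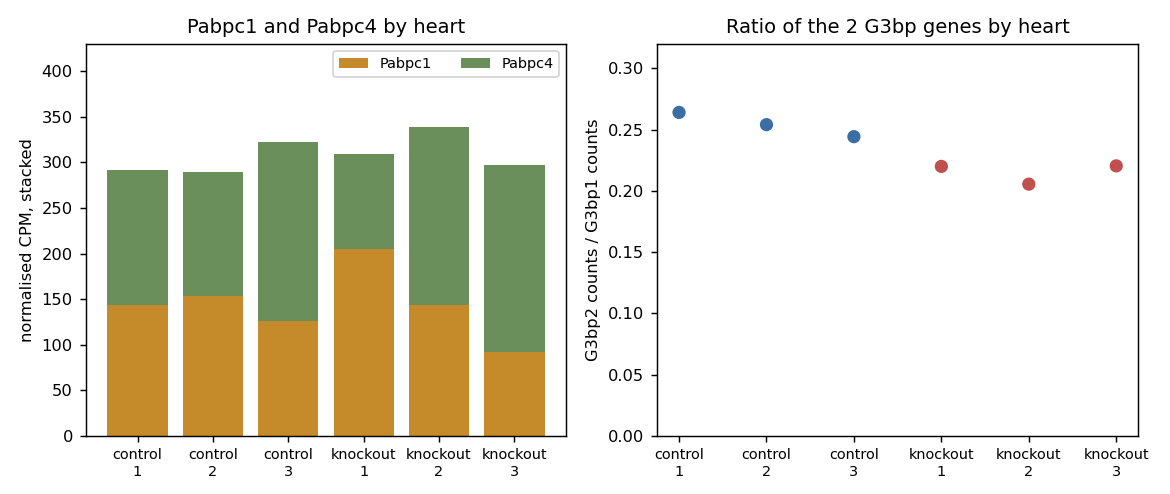
Left, normalised CPM of Pabpc1 and Pabpc4 stacked for each heart. Right, the ratio of G3bp2 to G3bp1 counts in each heart (axis from 0); the Pabpc sum, formed after the values had been seen, lies between 290.0 and 339 CPM, and the G3bp ratio is at 0.244 to 0.264 in the 3 control hearts (blue) and 0.206 to 0.220 in the 3 knockout hearts (red).

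The P-body genes Ddx6 and Lsm14a lay on opposite sides of 0. Ddx6, the DEAD-box helicase that represses translation and promotes decapping, was at 153, 187 and 163 CPM among the controls against 125, 155 and 116 CPM among the knockouts (hearts 1, 2 and 3 of each group). Knockout hearts 1 and 3 lay below all controls, and knockout heart 2 lay just above control heart 1. The means were 168 ± 17.6 and 132 ± 20.8 CPM, a log2 fold change of -0.35 (SE 0.20, interval -0.80 to 0.10; edgeR adjusted p = 0.694), and without knockout heart 3 it was -0.26. Lsm14a, its binding partner in mRNA storage, was at 20.9, 21.2 and 23.5 CPM among the controls against 28.0, 21.998 and 36.0 CPM among the knockouts. Knockout hearts 1 and 3 lay above all controls, and knockout heart 2 among them. The means were 21.9 ± 1.44 and 28.7 ± 7.04 CPM (log2 fold change 0.39, SE 0.21, interval -0.10 to 0.88; edgeR adjusted p = 0.694), and without knockout heart 3 the log2 fold change was 0.19. The paralogue Lsm14b was at 10.8, 9.52 and 11.9 CPM among the controls against 13.6, 12.7 and 14.3 CPM among the knockouts (log2 fold change 0.33, interval -0.07 to 0.73; edgeR adjusted p = 0.694). Its knockout hearts all lay above the controls, as for 6.26% of all tested genes.

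Because Ddx6 was lower where Elavl1, Dhx9 and Lsm14a were higher, their ratios within a library were also taken, after the levels had been seen. Elavl1 counts were 0.269, 0.198 and 0.282 of Ddx6 counts among the controls against 0.442, 0.311 and 0.578 among the knockouts. The knockout ratios all lay above the control ratios, as did those of Dhx9 to Ddx6 (0.0627 to 0.09996 against 0.1001 to 0.190, so the 2 nearest hearts nearly touch). The ratio of Lsm14a to Ddx6 overlapped between the groups. The ratio to Ddx6 lay above all controls in all knockouts for 21.9% of the other tested genes and below them for 0.941%.

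Pabpc1, the main cytoplasmic poly(A)-binding protein, had the widest spread of the members. It was at 143, 153 and 126 CPM among the controls against 205, 144 and 91.7 CPM among the knockouts (hearts 1, 2 and 3 of each group). Knockout heart 1 lay above and knockout heart 3 below all controls, so the means of 141 ± 13.6 and 147 ± 57.0 CPM were close while the knockout hearts differed from each other (log2 fold change 0.06, interval -0.59 to 0.71; edgeR adjusted p = 0.948). The sign turned with the library left out, from -0.27 without knockout heart 1 to 0.31 without knockout heart 3. Its paralogue Pabpc4 ran the other way among the knockout hearts, at 104, 195 and 205 CPM, with controls at 148, 137 and 196 CPM (log2 fold change 0.07, interval -0.59 to 0.72). The sum of Pabpc1 and Pabpc4 was 291, 290.0 and 323 CPM among the controls against 309, 339 and 297 CPM among the knockouts. The coefficient of variation among knockout hearts was 38.8% for Pabpc1, 33.4% for Pabpc4 and 6.83% for their sum. The sum was formed after the opposite order of these genes in the 3 knockout hearts had been seen, so its lower variation restates that order, and other pairs of genes were not compared. Pabpc1 had a fraction of a read in its count in every library, as when reads are shared with another place, so its level is uncertain to that extent.

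Igf2bp2, of the family of mRNA-stabilising IGF2 mRNA-binding proteins, was at 2.99, 2.86 and 2.79 CPM among the controls against 4.28, 2.73 and 2.11 CPM among the knockouts (hearts 1, 2 and 3 of each group). Its controls differed by little, and the knockout hearts lay on either side of them in the same order as for Pabpc1. It rested on 31 to 63 counts a library (log2 fold change 0.07, interval -0.63 to 0.77, and -0.26 without knockout heart 1). Its paralogues Igf2bp1 and Igf2bp3 had 0 to 7 counts in each library and were not tested. Nsun2, the m5C methyltransferase, was at 22.6, 26.9 and 29.6 CPM among the controls against 23.2, 25.7 and 23.0 CPM among the knockouts. The knockout values lay inside the range of the controls (means 26.4 ± 3.50 and 23.97 ± 1.52 CPM; log2 fold change -0.14, interval -0.55 to 0.27; edgeR adjusted p = 0.780). On the opposite strand in GENCODE M21, the exons of Nsun2 share 165 bases with Tent4a (77.5 to 189 counts a library) and 469 with Gm17108 (0 to 3 counts), and those of Lsm14a share 344 bases with Gm12764 and 110 with 2310043P16Rik (0 to 2 counts), so a small part of their counts is uncertain too.

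**Figure D3:**
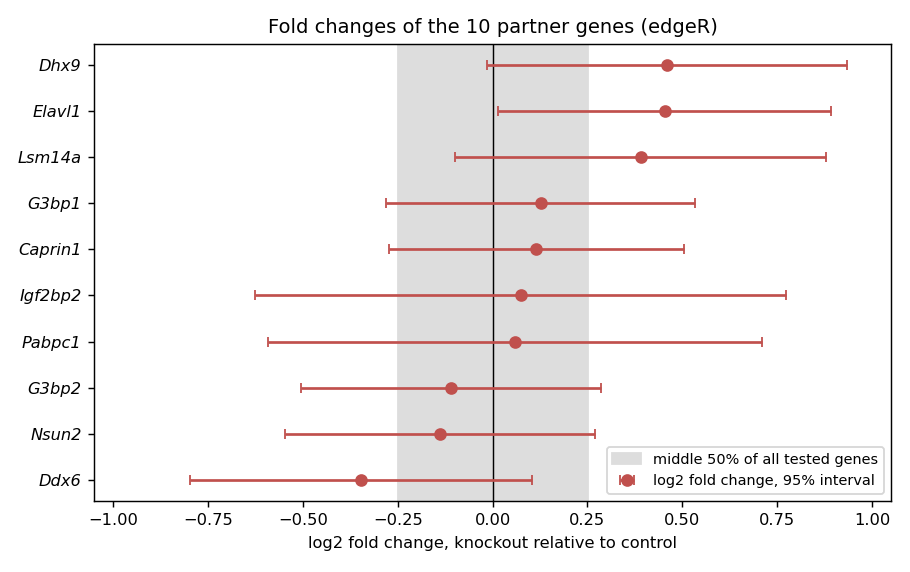
Log2 fold change of each partner gene, knockout relative to control (horizontal axis), with its 95% interval from edgeR's fit of 3 against 3 hearts. The grey band holds the middle 50% of all 13717 tested genes (-0.25 to 0.25); Elavl1, Dhx9 and Lsm14a lie above it and Ddx6 below it, and the interval of every gene except Elavl1 includes 0.

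Leaving out each library in turn kept the sign of 8 members in all 6 fits, and turned it for Pabpc1 and Igf2bp2. For Elavl1 and Dhx9, whose groups did not overlap, leaving out a library could hardly turn the sign. The fits share most of their libraries, and the share of all tested genes that kept their sign was not counted. In these fits Elavl1 lay between 0.32 and 0.54, Dhx9 between 0.33 and 0.58, Lsm14a between 0.19 and 0.54 and Ddx6 between -0.49 and -0.26. G3bp1 lay between 0.03 (without knockout heart 1) and 0.18, and G3bp2 between -0.22 (without knockout heart 1) and -0.06 (without knockout heart 2). Nsun2 lay between -0.25 (without control heart 1) and -0.05 (without control heart 3). No member was called over all genes in any of the 6 fits (edgeR adjusted p 0.382 to 1). At an unadjusted p under 0.05 there were 3 members without knockout heart 2 (Elavl1, Dhx9 and Lsm14a), where 6.43% of all tested genes lay under it. There were 0 members in each of the other 5 fits, in which this share of all tested genes ran from 1.43% (without control heart 2) to 12.7% (without knockout heart 1).

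**Figure D4:**
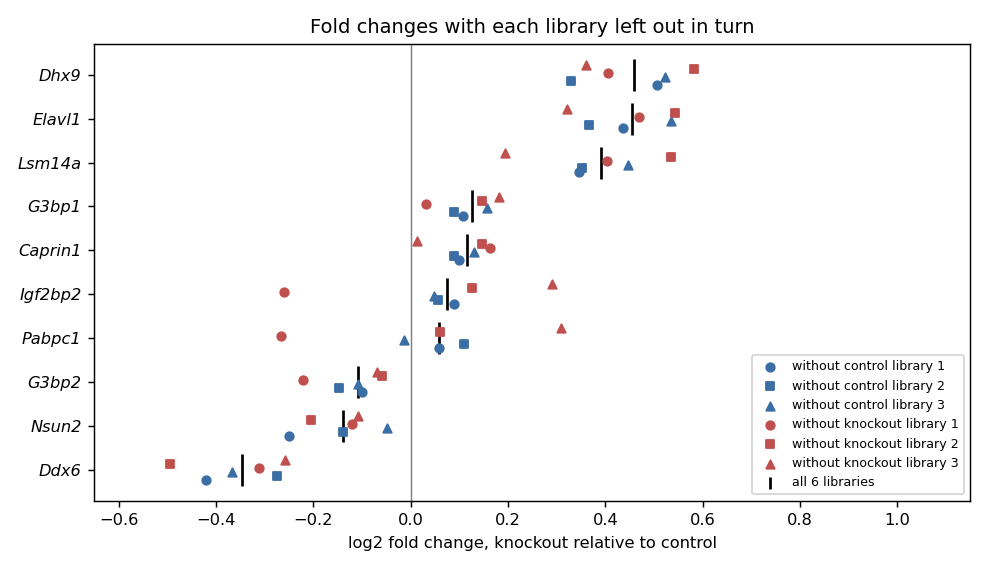
Log2 fold change of each partner gene, knockout relative to control (horizontal axis), with all 6 libraries (black bar) and without each control library (blue) or knockout library (red) in turn. Elavl1, Dhx9 and Lsm14a stay above 0 and Ddx6 below 0 in all 6 fits, which share most of their libraries. The groups of Elavl1 and Dhx9 do not overlap, so their sign could hardly turn. Pabpc1 and Igf2bp2 cross 0 without knockout library 1, and Pabpc1 also without control library 3.

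The level of each gene per kilobase of exon (normalised CPM per kb) differed widely between the members in the control hearts. The length was that of the exons of all GENCODE M21 transcripts of a gene, joined. It exceeds that of 1 transcript (the longest coding sequence) unequally. The lengths were 6540 and 2817 bases for Pabpc1, 8659 and 3026 for G3bp2, and 7064 and 6703 for G3bp1. The order of the members therefore rests on this choice, and levels per kb of 1 transcript were not computed. On the joined length, Pabpc1 at 21.6 ± 2.07, Ddx6 at 20.9 ± 2.20 and G3bp1 at 19.5 ± 0.75 CPM per kb formed the top. On that length they did not differ beyond their spread. Nsun2 (4.60 ± 0.610), G3bp2 (4.04 ± 0.126), Elavl1 (4.0 ± 0.426), Caprin1 (3.66 ± 0.0712) and Lsm14a (3.57 ± 0.235) followed, each overlapping its neighbour in that order. Dhx9 at 1.47 ± 0.215 and Igf2bp2 at 0.389 ± 0.0141 CPM per kb lay below all of these and did not overlap each other (SD, n = 3 each). Ybx1 was at 337 ± 16.9 CPM per kb in control hearts and at 63.9 ± 18.8 in knockout hearts, so it lay above all 10 partners in both groups. Since cDNA was primed on the poly(A) tail, reads may not cover a transcript evenly, and the effect of that on levels per kb was not tested.

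The members also differed in how far hearts of 1 group lay apart. The within-group SD on the log2 scale was lowest for G3bp1 (0.11), Caprin1 (0.12) and G3bp2 (0.13), below that of most genes of like level: 6.83%, 10.5% and 11.9% of genes within 0.5 log2 units of their mean level had a lower SD. It was highest for Pabpc1 (0.42), where 77.5% of genes of like level had a lower SD. Measured against the control mean, the median of the 10 members lay at 0.32 log2 units in knockout heart 1, at 0.01 in knockout heart 2 and at -0.08 in knockout heart 3, and between -0.04 and 0.05 in the control hearts. A like median over all tested genes was not set beside these values, so they may not be particular to the members. In knockout heart 1 only Ddx6 and Nsun2 lay below the control mean. That heart had the lowest summed level of the 8 cardiomyocyte markers (17861 CPM, with 21008 to 25140.5 CPM among the controls) and the highest of the 6 endothelial (453 CPM), 6 smooth muscle and pericyte (704 CPM), 6 fibroblast (886 CPM) and 5 erythroid markers (6850 CPM). In knockout hearts 1, 2 and 3 the endothelial sum was 453, 276 and 222 CPM. The smooth muscle sum was 704, 460 and 418 CPM, and both had the same order as Pabpc1 and Igf2bp2. Mitochondrial rRNA (24.4%, 21.7% and 10.7%) and Malat1 (6166, 3318 and 668 deposited CPM) fell in this order too. Among the controls both cell sums kept the order of Igf2bp2, and both RNA classes that of Pabpc1. The part of these cells or RNA classes in the values of the members was not tested.

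The transcripts of the members differed in the features that were read. In 1 GENCODE M21 transcript per gene (the longest coding sequence), the 3′ untranslated region was longer than in at least 94.0% of 21699 protein-coding genes for Elavl1 (4218 bases), G3bp1 (5170), Caprin1 (3858) and Ddx6 (4250). It was shorter than the median of 739 bases for Dhx9 (311), Pabpc1 (439) and Nsun2 (483). The AU-rich pentamer ATTTA, searched on the sense strand of this region with overlapping copies counted once, occurred 14 times in Elavl1 and 7 times in Caprin1 and in Ddx6. It occurred 4 times in Igf2bp2, 3 in Pabpc1 and in G3bp1, 2 in G3bp2, 1 in Dhx9 and in Lsm14a, and 0 times in Nsun2. A count of at least 14 was found in 2.2% of all protein-coding genes, of at least 7 in 10.4% and of at least 3 in 30.1%. These counts were not scaled to length, and a longer region has more room for the pentamer. They therefore do not show enrichment in any member.

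Around the members, 7 lists of genes of the same processes were read, which hold 129 genes with the members among them. Of these 122 were tested, 0 were called by edgeR over all genes, and 7 lay under an unadjusted p of 0.05, a share near the 5.14% of all tested genes. DESeq2 and limma-trend also called 0 of them. The log2 fold change lay above 0 in 59 and below 0 in 63, where 51.1% of all tested genes lay above 0. The non-members named below had the smallest p of their lists, so groups without overlap are likely from that choice alone. Over all tested genes, all knockout hearts lay above all controls for 6.26% and below them for 5.82%.

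Among 22 stress granule genes, members included, 10 lay above and 12 below 0 (median log2 fold change -0.04). All knockout hearts lay above all controls for 0 of the 22 and below them for 3. Ubap2, a protein of the same granules, was at 23.4 ± 4.88 CPM among the controls against 14.5 ± 1.82 CPM among the knockouts (log2 fold change -0.70, interval -1.18 to -0.21; edgeR adjusted p = 0.694), with all knockout hearts below all controls. Its paralogue Ubap2l was at 57.3 ± 8.18 and 41.6 ± 12.05 CPM, also without overlap (-0.46, interval -1.03 to 0.11). Of 23 P-body and decapping genes 12 lay above and 11 below 0 (median 0.13), with all knockout hearts above all controls for 2 and below them for 2. Lsm1, a subunit of the ring that binds the 3′ end of mRNA for decapping, was at 4.96 ± 1.5 and 8.68 ± 4.30 CPM, and Tnrc6c, a scaffold of microRNA silencing, at 64.6 ± 12.9 and 46.3 ± 9.01 CPM. The groups overlapped for Lsm1 and did not for Tnrc6c. Neither passed the test (each edgeR adjusted p = 0.694).

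Of 28 tested genes of poly(A) binding and deadenylation 14 lay above and 14 below 0 (median -0.02). All knockout hearts lay above all controls for 3 of the 28 and below them for 1. Cnot11, a subunit of the CCR4-NOT deadenylase, was at 3.54 ± 0.805 and 6.45 ± 2.47 CPM, with no overlap (log2 fold change 0.86, interval 0.14 to 1.58). Btg2, which recruits that deadenylase, was at 27.4 ± 5.70 and 44.6 ± 13.2 CPM (0.70, interval 0.10 to 1.31). Of 11 tested AU-rich element binding genes 5 lay above and 6 below 0 (median -0.004), with all knockout hearts above all controls for 3 and below them for 1. Zfp36 (tristetraprolin), which destabilises the kind of mRNA that HuR stabilises, was at 14.96, 14.9 and 17.1 CPM among the controls against 31.9, 19.8 and 22.6 CPM among the knockouts, with no overlap (0.66, interval 0.16 to 1.16). Auh was at 12.9 ± 2.61 and 20.9 ± 12.2 CPM. Each of these 4 genes had an edgeR adjusted p of 0.694 over all genes.

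Of 5 tested genes of the IGF2BP family and the coding region determinant complex 4 lay above and 1 below 0 (median 0.07). Syncrip was at 47.6 ± 1.26 and 51.5 ± 5.30 CPM and Hnrnpr at 42.0 ± 5.11 and 36.5 ± 4.0 CPM, so Dhx9 had the largest fold change of the 5. Of 12 tested m5C genes 6 lay above and 6 below 0 (median 0.03). The oxidase Tet3 was at 14.3 ± 4.32 and 10.1 ± 2.71 CPM and the tRNA methyltransferase Trdmt1 at 1.40 ± 0.358 and 2.21 ± 0.971 CPM. Of 27 RNA helicases 11 lay above and 16 below 0 (median -0.08), with all knockout hearts above all controls for 2 and below them for 1. Dhx37 was at 1.66 ± 0.0879 and 2.57 ± 0.184 CPM, with no overlap (log2 fold change 0.64, interval 0.05 to 1.23), and Ddx46 at 50.5 ± 8.76 and 35.8 ± 10.2 CPM. None of these genes passed the test over all genes (edgeR adjusted p 0.694 to 0.806).

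**Figure D5:**
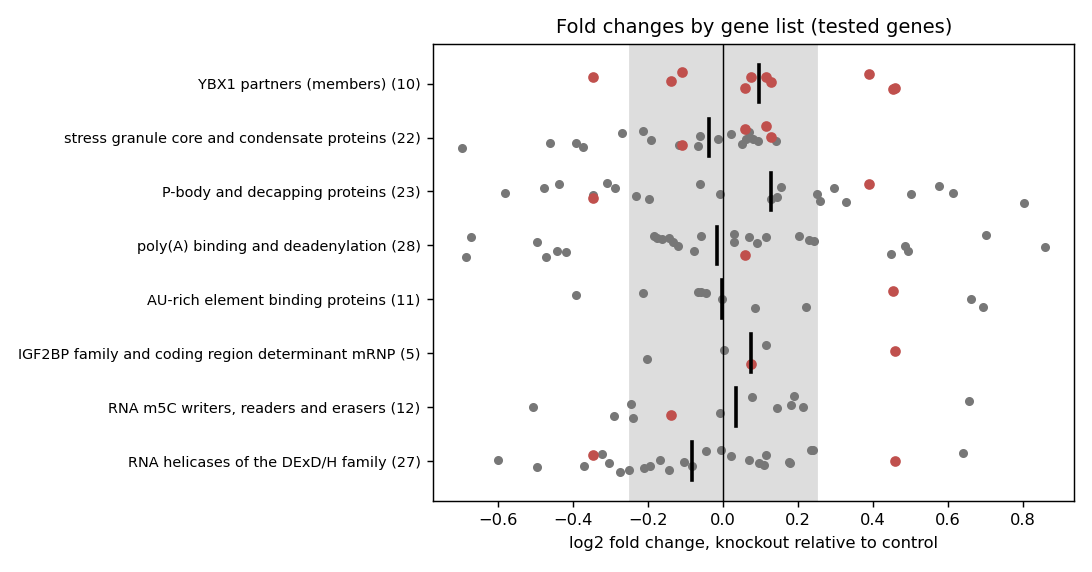
Log2 fold change, knockout relative to control (horizontal axis), of the tested genes of the 10 partners and of 7 lists of related genes, with the number tested in brackets. Partner genes are red, other genes grey, black bars are medians, and the grey band holds the middle 50% of all tested genes; the medians lie between -0.08 and 0.13.

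The tested genes whose pattern over the 6 libraries was most like the mean pattern of the 10 members were Ap1g1, Inip and Glmp. The measure was the root mean square difference of centred log2 values, which was 0.03, 0.04 and 0.04. The mean pattern of the members itself was nearly flat, with 0.17 in knockout heart 1 and -0.07 to 0.001 in the other 5 libraries.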

How the data were processed

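RNA was measured in 6 mouse hearts, 1 library each. Per the labels' protocols, total RNA was extracted with TRIzol and cDNA was primed on the poly(A) tail, made double-stranded, tagmented and amplified. Per the submitters' processing notes, reads were handled on mm39 with edgeR 4.0.16, Subread 2.1.1, featureCounts, STAR 2.7.11 and SAMtools 1.22.1, whose roles are not stated. Not given in the sources used here are the annotation release, the strand setting and the treatment of reads with several places. The authors' deposited values are estimated counts, some with a fraction of a read, and CPM (count over the library total). Of the 10 members, 4 had whole counts in all 6 libraries and 2 (Pabpc1 and Caprin1) a fraction in all 6.

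Counts were rounded, and 13717 genes were kept (CPM 1 or more in 3 or more of the 6 libraries). Counts were scaled by TMM factors and tested knockout against control with edgeR's quasi-likelihood test (R 4.3.3, the same edgeR release; two-sided, Benjamini-Hochberg over all tested genes, threshold 0.05). CPM values in the text carry these factors unless called deposited. SEs come from the F statistic and 95% intervals from its t distribution. The fit was also run on simulated counts with the same dispersion for every gene and no library set apart. That run therefore does not show how the fit performs on these hearts. Alternatives were DESeq2 1.42.0, limma-trend (limma 3.58.1) on log2(CPM + 0.5) or log2(CPM + 1), RLE or no scaling factors, no filter, the heart number as a block, and each library left out. P-values set the difference between the groups against the spread between hearts within a group, moderated by that of all tested genes.

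Members and lists were chosen with earlier results of these data known. Named from each list were the members, their paralogues, any called gene and the 2 non-members with the smallest p. Marker lists covered 9 cell types: 0 of their tested genes were called. Sequences are from RefSeq and gene models from GENCODE M21, both on GRCm38, and no coordinate was carried over to mm39.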

Additional observations from a re-analysis of the deposited data

How the results depend on the processing

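Without a scaling factor the median log2 fold change of all genes moved by 0.16, that of the members was 0.26, and G3bp2 (0.053) and Nsun2 (0.013) changed sign. Pabpc1 changed sign in limma-trend (-0.012 with either pseudocount) and with the replicate block (-0.013), and lay between -0.27 and 0.31 with a library left out (reversed without control heart 3, -0.014, and without knockout heart 1, -0.27). Igf2bp2 lay between -0.26 (without knockout heart 1) and 0.29 (without knockout heart 3). The members called were 0 under all 13 alternatives, and so were the called genes among the 121 to 129 genes of the 7 lists in each fit. The genes called over all genes were 133 without a filter, 15 in DESeq2 and 5 with the replicate block. They were 0 in the main fit, with RLE or no scaling factors and in limma-trend, and 0 to 1 with a library left out. Ybx1 was called without a filter (-2.38), in DESeq2 (-2.41), with the block (-2.44, edgeR adjusted p = 0.00424) and without knockout heart 3 (-2.18). It was not called in the main edgeR fit (-2.40, edgeR adjusted p = 0.148) or in the other alternatives. With a library left out Ybx1 lay between -2.60 and -2.18 and the median of the members between -0.04 and 0.19. The cause of these changes was not tested. Hearts with the same number had correlations of -0.11, 0.45 and 0.58 of their deviations from the group means over genes. Knockout hearts 2 and 3 correlated best with their own number, and knockout heart 1 with control heart 2 (0.57). Deviations from a mean of 3 are tied to each other, so these values cannot settle pairing, and the main fit used none. With the replicate block, 13.2% of all tested genes lay under an unadjusted p of 0.05 in edgeR, against 5.14% without it. The members under it with the block were Elavl1 (edgeR unadjusted p = 0.038) and Dhx9 (0.036). With 3 hearts a group, intervals of 1.5-fold or more were left for 6 of the 10 members.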
